A study of Mus musculus with 6 samples.

Results

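Noxa and 9 other genes of the BCL2 family were examined in mouse cells labelled as neural progenitor cells, with over-expressed Sox3 and as controls. The 10 genes were Pmaip1, which encodes Noxa, and Bbc3, Bcl2l11, Bid, Bmf, Bax, Bak1, Mcl1, Bcl2l1 and Bcl2, out of 15302 genes that the deposited table allowed to be named. All 10 had at least 1 probe set, and none shared its values with another gene. Where a gene had several probe sets, that with the highest mean over the 6 arrays was used, so the probe sets were chosen by their signal level and not by the difference between groups. The choice mattered for Bcl2 alone, since the 3 probe sets of Bcl2l11 held identical values and each other gene had 1. Noxa itself was selected on its difference in these same arrays, and that difference is therefore given as a description, without a p-value.

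Both groups came from mouse embryonic stem (ES) cells with GFP in the Sox1 locus. The Sox3 group (3 arrays) had the genotype Sox1-GFP and Nestin-Sox3, in which Sox3, a SoxB1 transcription factor, is expressed from the promoter of the progenitor gene Nestin. The control group (3 arrays) had the genotype Sox1-GFP alone. Both groups were grown as monolayers with B27 and N2 supplements for 4 days, with 0.5 µM all-trans retinoic acid on days 0 and 2, and were sorted by FACS on day 4. The 3 samples of a group are labelled as biological replicates. Whether they came from separate cultures, and whether each genotype was 1 ES cell clone, is not given in the sources used here, so p-values measure the spread between these samples only. Sox3 itself had a log2 signal of 9.22 ± 0.01 on the Sox3 arrays and 7.45 ± 0.18 on the control arrays (SD, n = 3 each).

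BCL2-family proteins decide whether the outer mitochondrial membrane is opened in the intrinsic pathway of apoptosis. Anti-apoptotic members such as MCL1, BCL-XL (encoded by Bcl2l1) and BCL2 bind and hold back the pore-forming proteins BAX and BAK, and BH3-only proteins such as Noxa, PUMA (Bbc3), BIM (Bcl2l11), BID and BMF bind the anti-apoptotic members or activate the pore formers. Noxa binds MCL1 in preference to BCL2 and BCL-XL, and Pmaip1 and Bbc3 are transcriptional targets of p53. Much of the family is regulated at the level of the protein, which arrays of mRNA do not measure. Bulk arrays cannot tell fewer cells of a type from less RNA per cell.

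Marker genes were read first, as a check of the labels. Of 9 neural progenitor markers with a probe set, 4 lay above the array median (6.85 to 6.87) on all 6 arrays: Vim at 12.23 and 12.11 in Sox3 and control cells, Sox2 at 11.59 and 11.96, Notch1 at 8.32 and 8.30, and Nes at 8.15 and 8.02. Pax6 (5.86 and 6.05) and Hes5 (5.63 and 5.59) lay below it on all 6, and Sox1, Msi1 and Fabp7 on some. Fabp7 had the largest difference of this list, 0.77 ± 0.20 (SE; limma adjusted p = 0.0741), which did not pass. The table has no detection calls, so whether dim markers were absent could not be stated. Of 7 pluripotency markers 6 lay above the array median on all arrays, among them Dppa5a at 13.49 and 13.59, Pou5f1 at 10.59 and 10.57, Esrrb at 8.40 and 8.14 and Klf4 at 7.94 and 7.90 in Sox3 and control cells, while Dppa3, at 6.68 and 6.58, lay below it. Beside 1.27% of all named genes called higher and 2.67% called lower at a limma adjusted p under 0.05, 1 progenitor gene fell, Sox2, and of 8 mesoderm markers 2 rose, Acta2 and Tagln, and 1 fell. Of 8 endoderm markers 4 fell (Cubn, Afp, Foxa2 and Ttr). Afp, at 4.94 and 5.50 in Sox3 and control cells, and Ttr, at 5.76 and 6.05, lay below the array median on all 6 arrays, as did Gata4. Gata6 and Gata4 had differences of 0.35 ± 0.12 and 0.26 ± 0.09 that did not pass (SE, limma adjusted p = 0.148 and 0.151). Sox17 and Sox7 were at 0.08 ± 0.13 and 0.04 ± 0.12 (SE, limma adjusted p = 0.728 and 0.8615). Of 8 neuronal markers 1 fell, Nefm, which was dim at 5.59 and 6.09 in Sox3 and control cells. In limma 4 of the 8 were lower and 0 higher at an unadjusted p under 0.05, against 15.2% and 8.69% of all named genes. Tubb3 had the lowest difference, -0.51 ± 0.11 (SE, limma adjusted p = 0.05075). Of the 7 pluripotency markers 0 passed in limma (2 had an unadjusted p under 0.05, Esrrb higher and Tdgf1 lower). Of these 9 called markers, Acta2, Tagln and Col1a2 kept their call without each of the 6 arrays, and the other 6 lost it in at least 1 such fit (limma adjusted p up to 0.116). The summed linear signal was higher in all 3 Sox3 arrays for the mesoderm list (1707 to 2038 against 1009 to 1205 in control) and lower for the neuronal list (1640 to 1795 against 1983 to 2194 in control). The mesoderm sum rose through Acta2 (linear signal 702.3 and 312.6 in Sox3 and control cells) and Tagln (563.5 and 209.8). T, Mesp1, Kdr, Hand1 and Tbx6 were dimmer (49.2 to 148.5 and 45.8 to 126.2) and not called, and Col1a2 was the gene that fell. The ranges overlapped for the progenitor list (8643 to 9273 and 9105 to 10072), the pluripotency list (20449 to 21946 and 20886 to 23474) and the endoderm list (2326 to 2797 and 2359 to 3149 in Sox3 and control cells). The part of these lists in the differences described here was not tested.

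Of the 10 genes, Noxa had the largest difference between the groups. Its log2 signal was 9.56, 9.53 and 9.73 on the Sox3 arrays, against 8.63, 8.38 and 8.94 on the control arrays. Every Sox3 array lay above every control array, and the gap between the lowest Sox3 and the highest control value, 0.59, was about as wide as the whole range of the control arrays, 0.57. The Sox3 arrays spanned 0.20. The mean was 9.61 ± 0.11 on the Sox3 arrays and 8.65 ± 0.28 on the control arrays (SD, n = 3 each), a difference of 0.96 ± 0.13 on the log2 scale (SE) with a 95% interval of 0.66 to 1.26. That is 1.94-fold, with an interval of 1.58-fold to 2.39-fold. Noxa was selected on this difference, and the interval is not corrected for that selection, so it is a description and not a test.

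The control arrays agreed less well on Noxa than on most genes. Only 1.08% of the named genes had a control SD as large, while the Sox3 arrays were less spread. Control replicate 3, which stood apart from the other arrays over all probe sets (at 22.4 on the first principal component, with the Sox3 arrays at -15.3 to -7.91 and control replicates 1 and 2 at 4.83 and 6.04), held the highest control value. Without it the log2 difference was 1.10, and without control replicate 2, which held the lowest, it was 0.82. Of all named genes, 10 had a larger difference upward, and 0.105% had one at least as large in either direction.

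**Figure D1:**
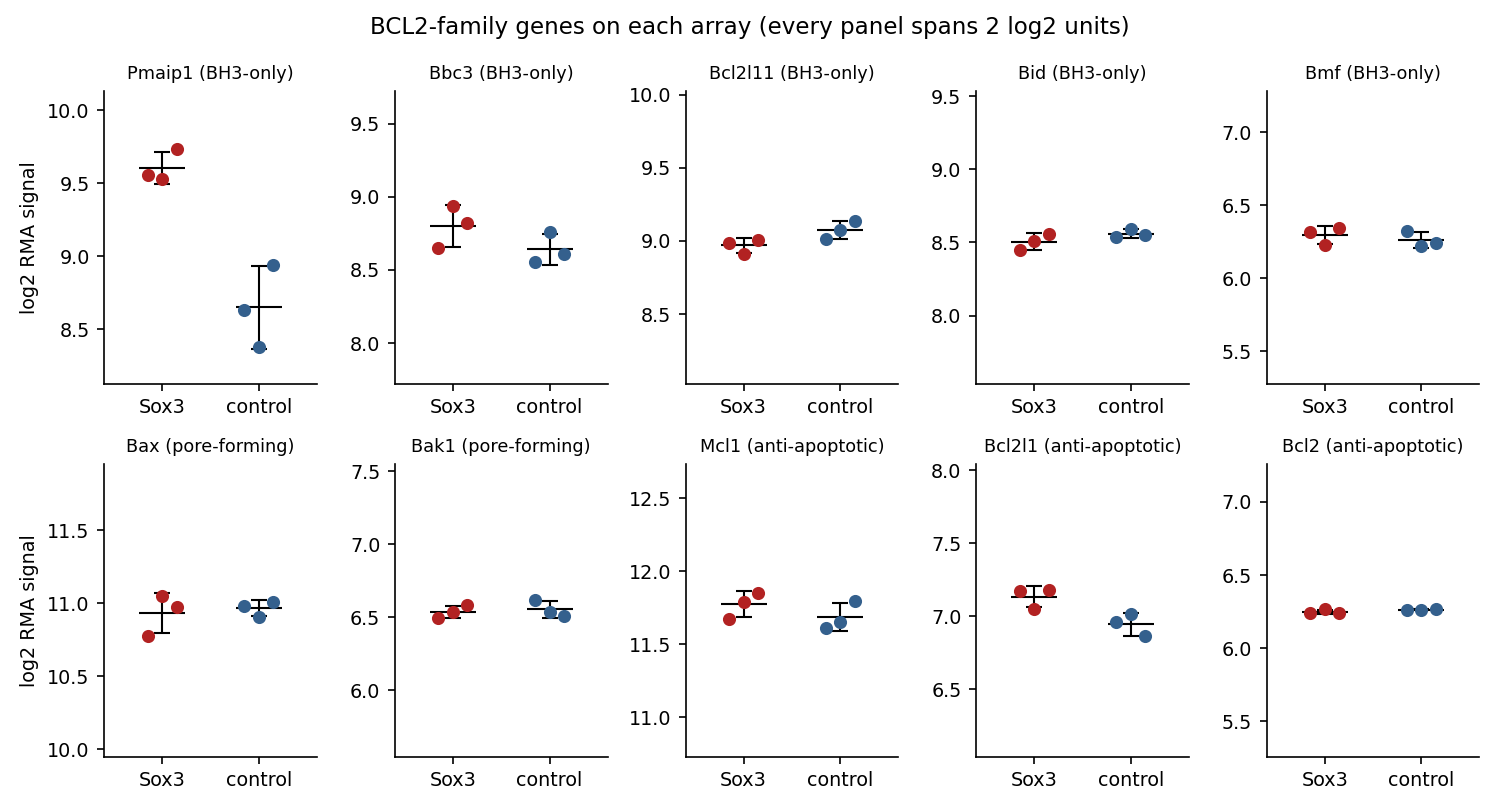
Log2 RMA signal of the 10 BCL2-family genes on each of the 3 Sox3 arrays (red) and 3 control arrays (blue); black bars show the mean and SD, and every panel spans 2 log2 units. Noxa (Pmaip1) is at 9.53 to 9.73 in Sox3 cells and 8.38 to 8.94 in control cells, while the groups overlap or nearly touch for the other 9 genes.

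The other BH3-only genes showed no difference that passed the test. Bbc3, which encodes the p53-induced protein PUMA, was at 8.65, 8.94 and 8.82 in Sox3 cells and 8.56, 8.76 and 8.61 in control cells. The groups overlapped, and the difference of 0.16 ± 0.08 (SE; limma adjusted p = 0.296) had a 95% interval of -0.03 to 0.35. Bcl2l11, which encodes BIM, was at 8.99, 8.91 and 9.01 in Sox3 cells and 9.02, 9.08 and 9.14 in control cells. All Sox3 values lay below all control values, but by little: the difference was -0.11 ± 0.05 (SE; limma adjusted p = 0.278), with an interval of -0.23 to 0.02. The 3 deposited Bcl2l11 probe sets carry the accessions of different transcripts but the same values, so its splice forms were not told apart.

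Bid, whose protein is cleaved by caspase 8 and links the death receptors to mitochondria, was at 8.45, 8.51 and 8.56 in Sox3 cells and 8.54, 8.59 and 8.55 in control cells. The difference of -0.05 ± 0.05 (SE) had an interval of -0.17 to 0.06 (limma adjusted p = 0.531). Bmf, a BH3-only protein held at the cytoskeleton, was at 6.32, 6.23 and 6.35 in Sox3 cells and 6.33, 6.22 and 6.24 in control cells. The groups overlapped for Bid and for Bmf, and the Bmf difference was 0.03 ± 0.05 (SE; limma adjusted p = 0.717). Bmf lay below the array medians, where RMA is known to compress differences.

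The pore-forming genes did not differ beyond the spread of the arrays. Bax was at 10.78, 11.05 and 10.98 in Sox3 cells and 10.98, 10.90 and 11.01 in control cells, a difference of -0.03 ± 0.07 (SE; limma adjusted p = 0.811). Its lowest and its highest value both came from Sox3 arrays. Bak1 was at 6.50, 6.54 and 6.58 in Sox3 cells and 6.62, 6.54 and 6.51 in control cells, a difference of -0.02 ± 0.05 (SE; limma adjusted p = 0.862). The 95% intervals in fold were 0.869 to 1.10 for Bax and 0.911 to 1.07 for Bak1. Bak1, like Bmf, lay below the array median on all 6 arrays.

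Among the anti-apoptotic genes, Bcl2l1 came closest to the threshold. This gene, which encodes BCL-XL, was at 7.17, 7.05 and 7.18 in Sox3 cells and 6.96, 7.01 and 6.86 in control cells. All Sox3 values were above all control values, though the nearest pair differed by 0.04. The difference was 0.19 ± 0.06 (SE), or 1.14-fold, with an interval of 0.05 to 0.33 and an unadjusted p of 0.0138 in limma's test, and it did not pass over the whole table (limma adjusted p = 0.121; 0.0996 to 0.304 over 15 alternatives). As a share of all named genes, 17.1% had a difference at least as large.

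Mcl1, the partner that Noxa binds best, was at 11.68, 11.79 and 11.85 in Sox3 cells and 11.61, 11.65 and 11.79 in control cells. The groups overlapped, and the difference was 0.09 ± 0.07 (SE; limma adjusted p = 0.468), with a 95% interval of 0.952-fold to 1.18-fold. Bcl2 was at 6.24, 6.26 and 6.24 in Sox3 cells and 6.26, 6.26 and 6.27 in control cells, a difference of -0.01 ± 0.04 (SE; limma adjusted p = 0.850). Its signal was dim and almost the same on all 6 arrays: 99.9% of the named genes had a control SD at least as large. The second Bcl2 probe set, of another transcript, had means of 5.80 ± 0.05 on the Sox3 arrays and 5.78 ± 0.04 on the control arrays (SD, n = 3 each), a difference of 0.03 ± 0.05 (SE; limma adjusted p = 0.764).

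**Figure D2:**
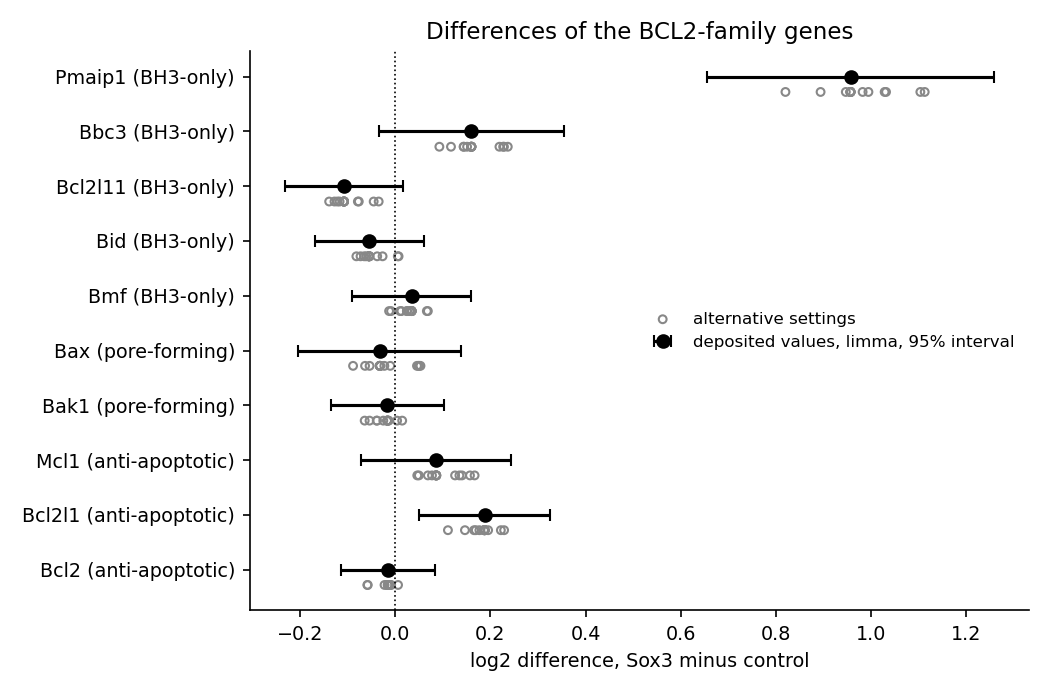
Log2 difference, Sox3 minus control, of the 10 BCL2-family genes: filled points with limma's 95% interval for the deposited values, and open circles below them for the alternative settings. Noxa (Pmaip1) stands at 0.96, with alternatives from 0.82 to 1.11, and the filled points of the other 9 genes lie within 0.19 of zero; their open circles reach 0.24 for Bbc3 and 0.23 for Bcl2l1. Noxa was selected on its difference, so its interval is a description only.

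Set side by side, the 10 genes showed 1 with a large difference and 9 with small ones. At a limma adjusted p under 0.05, 1 of the 10 genes was called higher and 0 were called lower, against 3.94% of all named genes called in either direction, 1.27% higher and 2.67% lower (3.62% of all probe sets). Since Noxa was put forward for this difference, the count of 1 is a description only. Of the other 9 genes 0 were called, with 1 at an unadjusted p under 0.05 (Bcl2l1). The groups did not overlap for 3 of the 10 genes (Pmaip1 and Bcl2l1 above, Bcl2l11 below), against 31.3% of all named genes, of which 13.1% had all Sox3 arrays above and 18.3% all below, so the 10 genes were near the background. The median log2 difference was 0.01 over the 10 genes, -0.01 without Noxa, and 0.00 over all named genes. That of all named genes varied with signal level. With the named genes split into 10 bins by mean signal, it was -0.08 in the bin of Bax and Mcl1 and 0.05 in that of Bcl2 and Bmf. Differences and list medians are not adjusted for this.

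On the deposited values, the precision of the arrays bounds what the other 9 genes could have done. Their SEs were 0.04 to 0.08 on the log2 scale, and their 95% intervals together ran from 0.852-fold to 1.28-fold. On the array scale the interval of each of the 9 genes ended below 1.94, the fold found for Noxa. Since Noxa was selected on that difference, this is a description and not a test. For 8 of the 9 the interval contained 0 on the deposited values, the exception being Bcl2l1. Mcl1 was at 0.16 ± 0.05 after quantile normalisation and 0.17 ± 0.05 under cyclic loess (SE; limma adjusted p = 0.1085 and 0.0927). Bbc3 was at 0.23 ± 0.08 in both settings (SE; limma adjusted p = 0.1449 and 0.1605). By role, the BH3-only genes other than Noxa held both signs (Bbc3 and Bmf above 0, Bcl2l11 and Bid below), both pore formers were below 0, and of the anti-apoptotic genes Bcl2l1 and Mcl1 were above 0 and Bcl2 below, with the signs of Bax, Bid and Bmf turned under quantile normalisation and cyclic loess.

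**Figure D3:**
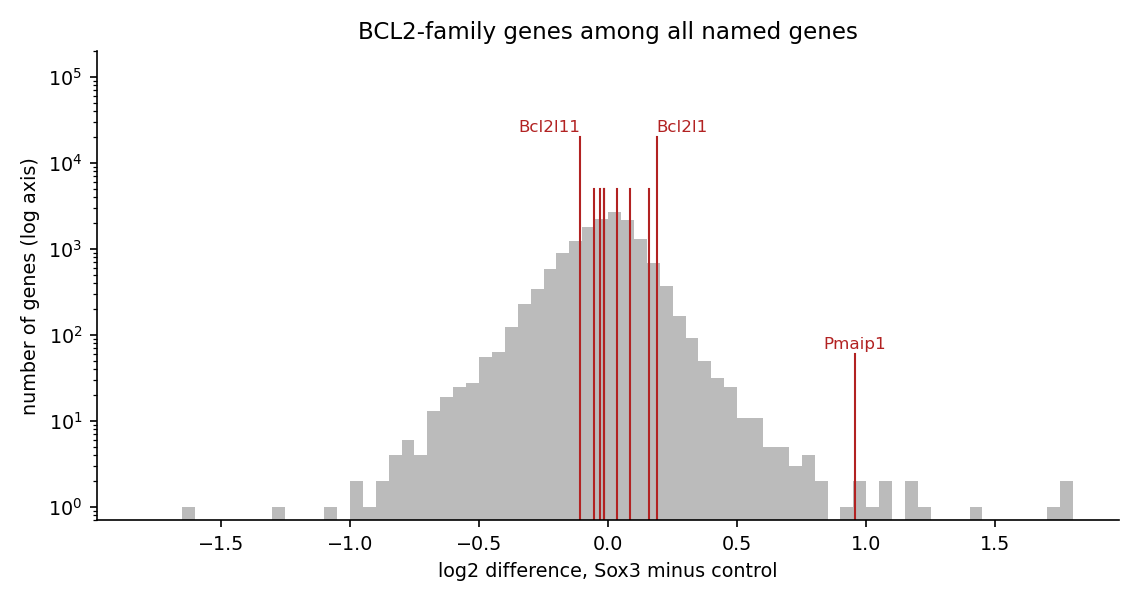
Distribution of the log2 difference, Sox3 minus control, over 15302 named genes (grey, number of genes on a log axis), with the 10 BCL2-family genes as red lines of arbitrary height. Noxa (Pmaip1) lies in the far upper tail, with 10 genes beyond it, and the other 9 genes lie in the bulk, between Bcl2l11 at -0.11 and Bcl2l1 at 0.19.

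The genes whose pattern over the arrays was most like that of Noxa were Pcdh8, F3, Pmp22, Cxcl12 and Lhfp. Likeness was measured as the Euclidean distance between log2 profiles over the 6 arrays, each centred on its own mean, and was 0.42 for Pcdh8, a protocadherin gene, and for F3, which encodes tissue factor. It was 0.46 for the membrane protein gene Pmp22 and 0.49 for Cxcl12, a chemokine gene, and for Lhfp. Their log2 differences were 1.10 for Pcdh8, 0.72 for F3, 1.06 for Pmp22, 0.81 for Cxcl12 and 0.95 for Lhfp, given as a description because likeness to Noxa chose them. Pcdh8, F3, Pmp22 and Cxcl12 also had their highest control value on control replicate 3. Of the other 9 genes Bcl2l1 was the nearest to Noxa, at a distance of 1.08, and Bcl2l11 the farthest, at 1.36.

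**Figure D4:**
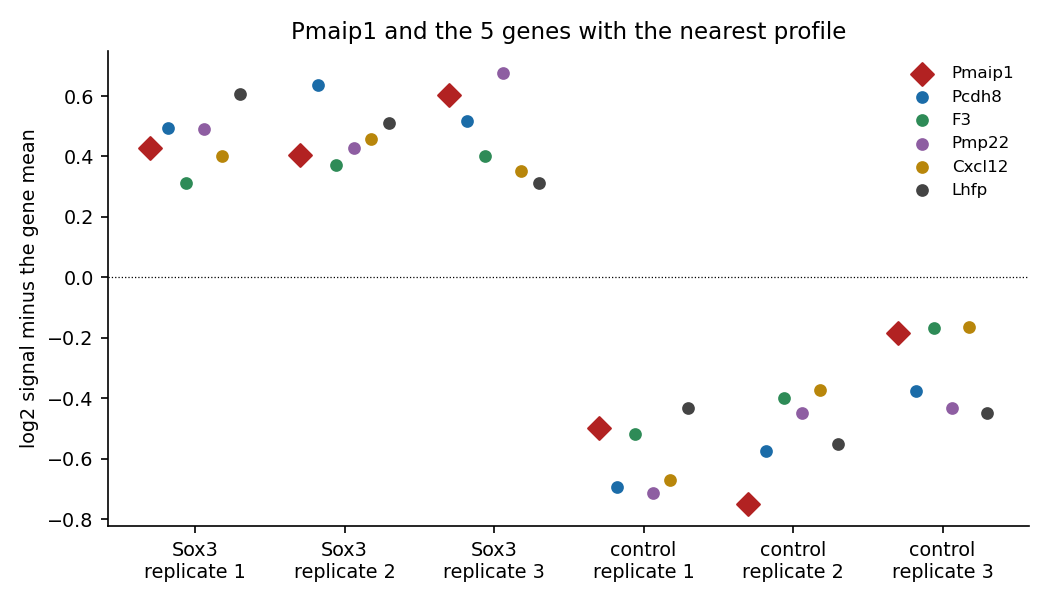
Log2 signal minus the gene's own mean on each array for Pmaip1 (diamonds) and the 5 named genes with the nearest profile (circles), Sox3 arrays to the left of control arrays. All 6 genes are above 0 on the Sox3 arrays and below 0 on the control arrays, and Pmaip1 has its lowest value on control replicate 2.

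Further members of the BCL2 family and its neighbours were read from lists of textbook membership. Of 12 other genes with a probe set listed beside the family, among them Bnip1, Bnip2 and Bnip3l, 1 fell and 0 rose. Their median log2 difference was -0.03 against 0.00 over all named genes. The fallen gene was Bnip3l, which encodes NIX, a mitochondrial protein of the BNIP3 group that acts in mitophagy. It was at 8.89, 8.92 and 8.83 in Sox3 cells and 9.27, 9.25 and 9.49 in control cells, a difference of -0.46 ± 0.07 (SE; limma adjusted p = 0.0176). The groups did not overlap, but leaving out Sox3 replicate 1, 2 or 3 ended the Bnip3l call (limma adjusted p = 0.0711, 0.0608 and 0.0626; 0.00311 to 0.0711 over 15 alternatives). Hrk, a BH3-only gene of neurons chosen after its value was seen, had the highest difference of this list, 0.19 ± 0.06 (SE; limma adjusted p = 0.0993).

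In the list of the apoptosome and caspases, 1 of 14 genes fell and 0 rose, with a median of -0.05. Htra2, a protease released from mitochondria that relieves the block of caspases by IAP proteins, was at 8.78, 8.77 and 8.77 in Sox3 cells and 9.14, 9.00 and 9.12 in control cells, a difference of -0.31 ± 0.05 (SE; limma adjusted p = 0.0234). This call was lost without any 1 of the Sox3 arrays or without control replicate 1 (limma adjusted p = 0.0879, 0.0869, 0.0742 and 0.0624; 0.0107 to 0.0879 over 15 alternatives).

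Before adjustment, 8 of the 14 apoptosome and caspase genes had a limma p under 0.05, against 23.8% of all named genes. Of these, 6 were lower and 2 higher, against 15.2% and 8.69% of all named genes. The lowest difference was that of Casp8, the initiator caspase of death receptors, at -0.57 ± 0.13 (SE; limma adjusted p = 0.0531). Casp8 was at 6.02, 6.04 and 6.12 in Sox3 cells and 6.76, 6.29 and 6.83 in control cells, with control replicate 2 nearest the Sox3 arrays. Endog and Aifm1, mitochondrial proteins that act on DNA after release, had differences of -0.27 ± 0.06 and -0.29 ± 0.09 (SE; limma adjusted p = 0.0568 and 0.111). Casp9, the caspase of the apoptosome, was at -0.17 ± 0.05 and the executioner Casp6 at -0.24 ± 0.08 (SE; limma adjusted p = 0.111 and 0.122). The 2 with positive differences were Cycs, which encodes the cytochrome c that triggers the apoptosome, at 0.15 ± 0.06, and the nuclease gene Dffb at 0.14 ± 0.05 (SE; limma adjusted p = 0.179 and 0.188). Apaf1, the scaffold of the apoptosome, was at 0.07 ± 0.08 (SE; limma adjusted p = 0.609). Cycs, at 5.97 and 5.82 in Sox3 and control cells, and Dffb, at 6.46 and 6.32, lay below the array median on all 6 arrays, as did Casp8. All of these but Htra2 are named with their values known.

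The IAP family, some of whose members inhibit caspases, had 0 of 8 genes called by limma, with 2 at an unadjusted p under 0.05 and a median of -0.07. The largest differences were -0.19 ± 0.07 for Birc6 and -0.19 ± 0.06 for Birc2 (SE; limma adjusted p = 0.144 and 0.141). Of 12 death receptor genes 1 rose, with a median of 0.05. Tnfrsf10b, the TRAIL receptor of the mouse, was at 6.89, 6.73 and 6.62 in Sox3 cells and 6.35, 6.45 and 6.41 in control cells, a difference of 0.34 ± 0.07 (SE; limma adjusted p = 0.0432). Tnfrsf10b was dim: of its values only that of Sox3 replicate 1 lay above the array medians (6.85 to 6.87). With only probe sets above the median signal it had no value. Among fits without 1 array, the Tnfrsf10b call held only without Sox3 replicate 3. It did not hold without Sox3 replicate 1 or 2 (limma adjusted p = 0.113 and 0.117) and without control replicate 1, 2 or 3 (0.0955, 0.0912 and 0.0793), and also after quantile normalisation (0.0729), under cyclic loess (0.0533) and with the replicate block (0.0600).

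Genes that govern the turnover of MCL1 and Noxa proteins had 0 of 10 called by limma, with a median of -0.01. In limma 3 had an unadjusted p under 0.05, 2 of them lower and 1 higher, against 15.2% and 8.69% of all named genes. The higher gene was Marchf5, at 0.14 ± 0.05 (SE, limma adjusted p = 0.161). Rnf7 was at 0.04 ± 0.06 (SE, limma adjusted p = 0.670). Marchf5 and Rnf7 are named with their values known. Cul5, a cullin of a ligase that ubiquitinates Noxa in human cells, and Ube2f, an E2 enzyme that attaches NEDD8 to CUL5, had the largest differences. Ube2f was at 10.17, 10.32 and 10.26 in Sox3 cells and 10.49, 10.49 and 10.65 in control cells, a difference of -0.29 ± 0.07 (SE; limma adjusted p = 0.0519). Cul5 was at 8.39, 8.21 and 8.11 in Sox3 cells and 8.53, 8.47 and 8.60 in control cells, a difference of -0.30 ± 0.08 (SE; limma adjusted p = 0.0772). Both genes were lower on all Sox3 arrays without passing the threshold. Ube2f passed it in 4 of the 15 alternatives (limma adjusted p = 0.0266 with array weights, 0.0477 under cyclic loess, 0.0346 with only the brighter probe sets and 0.0337 after quantile normalisation), and Cul5 in 2 (0.0291 with array weights and 0.0486 with only the brighter probe sets).

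Of 15 regulators known to induce BH3-only genes 1 rose and 0 fell, against 1.27% and 2.67% of all named genes, with a median of 0.09. Atf3, a stress-induced bZIP factor, was at 7.41, 7.31 and 7.50 in Sox3 cells and 6.88, 6.93 and 7.07 in control cells, a difference of 0.45 ± 0.07 (SE; limma adjusted p = 0.0173). Leaving out Sox3 replicate 1 or 3, or control replicate 1 or 2, ended the Atf3 call (limma adjusted p = 0.0734, 0.0542, 0.0524 and 0.0641; 0.00239 to 0.0734 over 15 alternatives). Trp53, which encodes p53, was at 8.43, 8.60 and 8.89 in Sox3 cells and 8.36, 8.41 and 8.48 in control cells. Its groups overlapped, and the difference of 0.22 ± 0.11 (SE; limma adjusted p = 0.261) did not pass; Trp53 was chosen after its value was seen. Egr1, an immediate early factor, had the difference of largest size in the list, -0.47 ± 0.19, with overlapping groups, and Hif1a, the hypoxia factor, was at -0.23 ± 0.07 (SE; limma adjusted p = 0.179 and 0.123). Neither passed, and both are named with their values known.

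Of 19 p53 target genes other than Pmaip1 and the rest of the 10 genes, 3 rose and 0 fell, against 1.27% and 2.67% of all named genes, with a median of 0.12. Of the 19, 11 had an unadjusted p under 0.05, 10 of them higher and 1 lower, against 8.69% and 15.2% of all named genes. The lower one was Ddb2, a DNA damage binding protein gene, at -0.31 ± 0.11 (SE; limma adjusted p = 0.137), with overlapping groups. The log2 differences of the 3 that rose were 0.65 ± 0.05 for Perp, a desmosomal protein gene, 0.43 ± 0.06 for Cdkn1a, which encodes the cell cycle inhibitor p21, and 0.38 ± 0.05 for the antiproliferative gene Btg2 (SE; limma adjusted p = 0.00178, 0.0124 and 0.0117). Leaving out Sox3 replicate 1 or 2, or control replicate 2, ended the Cdkn1a call (limma adjusted p = 0.0550, 0.0603 and 0.0538) and leaving out Sox3 replicate 2 ended that of Btg2 (0.0501), while Perp kept its call without each of the 6 arrays. Bbc3 and Bax, also p53 targets, were not called, as given above.

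**Figure D5:**
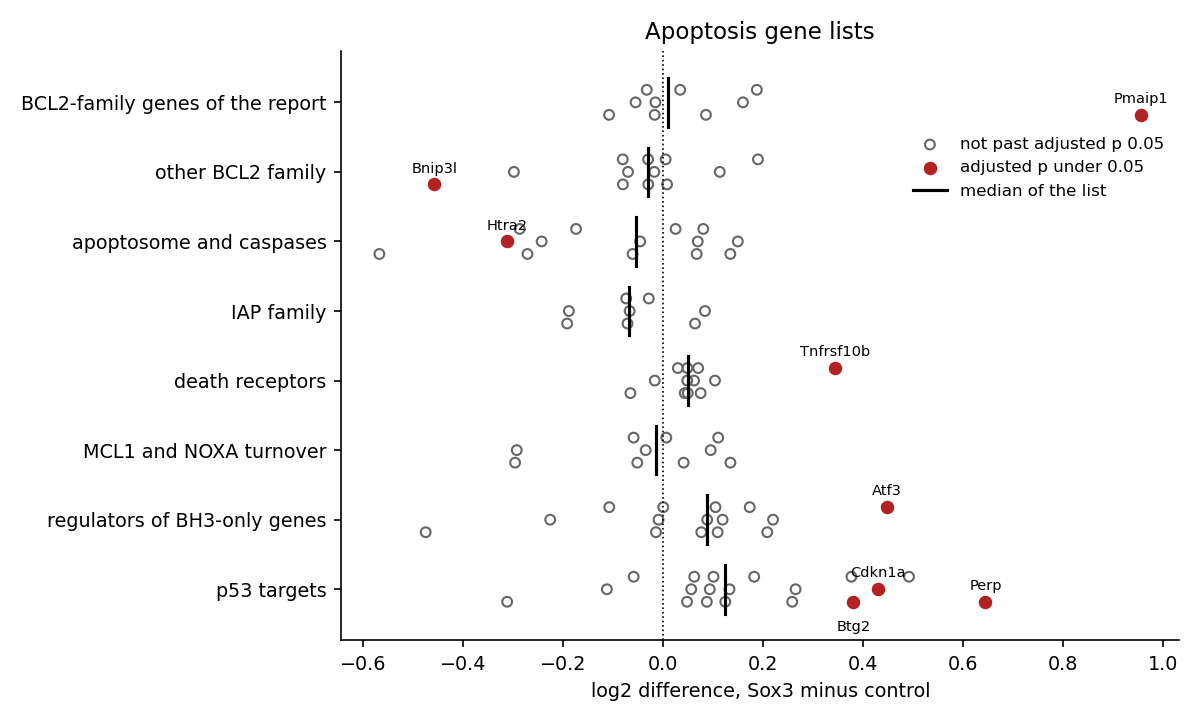
Log2 difference, Sox3 minus control, of each gene in the 10-gene set and in 7 other apoptosis lists; red points passed a limma adjusted p of 0.05, open circles did not, and the bars are list medians. List medians run from -0.07 (IAP family) to 0.12 (p53 targets), and 8 genes are called in all, of which Pmaip1 has the largest difference. Pmaip1 was put forward for this difference, so its call and rank are a description only.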

How the data were processed

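Expression was measured on 6 Affymetrix arrays, 3 of Sox3 cells and 3 of control cells. The deposited values are log2 signals. Per the submitters' processing notes, the authors used Affymetrix Power Tools and its RMA method, which corrects background, quantile-normalises probes between arrays and summarises each probe set. The sources used here state neither tool versions, nor the array type, nor how probe sets were defined. Values ran from 4.41 to 14.6. After leaving out 64 array controls, 21876 probe sets were tested, and 17123 were named by RefSeq accession without version (GRCm38.p6 gene table, names only), giving 15302 genes. Sox3 cells were set against control cells by limma 3.58.1 under R 4.3.3 (lmFit, eBayes, two-sided), with Benjamini-Hochberg adjustment over all 21876 probe sets and a threshold of 0.05; intervals are limma's 95% intervals. The fit was tested on simulated data. The number of arrays limits the precision.

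The 10 genes and all lists were chosen with earlier results of these data known. Beside the 10 genes, the genes named are Sox3, the 5 nearest profiles to Pmaip1 and, from each list other than the markers, up to 4 called genes by smallest p, or, failing any, the 2 that differed most. Others, the marker genes included, are named after their values were seen. Of the listed genes, those with no matched probe set were not analysed here. Same-numbered arrays deviated from their group means with correlations of 0.29, -0.21 and 0.09 and were not treated as pairs. Alternatives were quantile normalisation, median centring, cyclic loess, a filter at the median signal, array weights, eBayes with a trend and robust estimation, a replicate block, distinct profiles only, probe set averaging and leaving out each array.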

Additional observations from a re-analysis of the deposited data

How the results depend on the processing

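Of the 9 BCL2-family genes other than Pmaip1, 0 were called by limma under any of the 15 alternatives, as in the values reported (where 1, Bcl2l1, had an unadjusted p under 0.05). Pmaip1 was selected on its difference in these arrays, so its values are a description and not a test: its log2 difference was 0.96 to 1.11 under the 9 settings with all arrays and 0.82 to 1.10 with 1 array left out. With the replicate block it was 0.96 as before, and the counts of calls were 248 probe sets higher and 510 lower; among the called genes named, the 9 called markers included, the block ended the call of Tnfrsf10b alone. The signs of small, uncalled differences turned in 11 of 147 values. Bax was at 0.0491 with array weights, 0.0505 under cyclic loess and 0.0533 after quantile normalisation, and ran from -0.0883 to 0.046 with 1 array left out. Under cyclic loess and quantile normalisation Bid was at 0.0073 and 0.0057 and Bmf at -0.0085 and -0.0126. Bcl2 was at 0.0062 with probe sets averaged, and Bak1 ran from -0.0386 to 0.0149 with 1 array left out. The filter at the median signal gives no value for Bak1, Bcl2 and Bmf, or for Tnfrsf10b. In the other apoptosis lists 5 genes were called higher and 2 lower, against 13 and 7 with array weights, 8 and 4 after quantile normalisation, 5 lower with the filter, and 2 to 4 higher and 0 to 6 lower with 1 array left out. Of all probe sets, 255 were called higher and 536 lower, against 382 and 498 after quantile normalisation, 365 and 455 under cyclic loess, 817 and 1280 with array weights, and 74 to 189 and 94 to 286 with 1 array left out. Fits on 5 arrays have fewer samples. Dim genes such as Bcl2, Bmf and Bak1 have no stated detection limit.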
